A study of Homo sapiens with 26 samples.

Results

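The linker and replacement histones described here are 9 genes whose coding sequences (CDSs) were found in the codon maps by their GENCODE symbols, 9 of 12325 transcripts in all. They are the linker histones H1-2, H1-4 and H1-10, the H3.3 genes H3-3A and H3-3B, the H2A.Z genes H2AZ1 and H2AZ2, H2AX and MACROH2A1. Ribosome footprints (ribo-seq) and mRNA (mRNA-seq) were measured in Huh7, an established hepatocellular carcinoma cell line, after exposure to PF-06446846, a small molecule that acts on translation, or to vehicle (0.5% DMSO). Study 1 held 18 ribo-seq libraries, 3 each of vehicle, 0.3 μM and 1.5 μM PF-06446846 after 10 min and after 60 min. Study 2 held 4 ribo-seq and 4 mRNA-seq libraries, 2 each of vehicle and 1.5 μM after 60 min, with both assays made from the same samples. All cells received cycloheximide at harvest and none before it.

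Linker histones bind the DNA that enters and leaves the nucleosome, and replacement histones enter chromatin outside DNA replication. Replication-dependent histone mRNAs are made in S phase and end in a conserved stem-loop that is bound by SLBP, in place of a poly-A tail. Replacement histone mRNAs are polyadenylated, and H2AX is known to give both forms. H1-2 and H1-4 are of the replication-dependent kind, and H1-10 is a polyadenylated linker histone gene. H3.3 is deposited by the HIRA and ATRX-DAXX chaperones, H2A.Z is exchanged by the SRCAP and EP400 remodellers, H2AX is phosphorylated at DNA breaks, and MACROH2A1 encodes an H2A with a large macro domain.

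The 3′ ends of the transcripts in the codon maps followed this division only in part (GENCODE v44, GRCh38). A 16-base match to the histone 3′ stem-loop, searched on the transcript strand, was present in the 3′ UTRs of H1-2, H1-4 and H2AX and in none of the other 6. Of 10567 transcripts with at least 16 bases after the stop codon, 0.549% held such a match. The sequences are shown because they set these genes apart from the other 6, with the stem-loop in capitals, 5′ to 3′ on the strand of the gene.
H1-2 (chr6:26055740-26055765, minus strand, exonic, 3′ UTR): ccaaaaGGCTCTTTTCAGAGCCacca
H1-4 (chr6:26157089-26157115, plus strand, exonic, 3′ UTR): cccaaaGGCTCTTTTCAGAGCCaccca
H2AX (chr11:119094892-119094919, minus strand, exonic, 3′ UTR): cacaaaGGCCCTTTTAAGGGCCaccacc

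The stem-loop of H1-2 began at base 28 of a 3′ UTR of 47 bases and that of H1-4 at base 45 of 65. The annotated H2AX transcript ran on past its stem-loop, which began at base 50 of 1089. H1-10, H3-3A and H2AZ1 held AATAAA, the sequence of the poly-A signal, in the 3′ UTR. In H1-10 and H2AZ1 it lay 22 and 20 bases from the transcript end, and in H3-3A it lay 251 bases from it. The sequences of H1-10 and H2AZ1 are shown with AATAAA in capitals.
H1-10 (chr3:129314775-129314804, minus strand, exonic, 3′ UTR): ttttttgggcacAATAAAgcgtttaaacct
H2AZ1 (chr4:99948090-99948119, minus strand, exonic, 3′ UTR): gtggataagttcAATAAAggtcatatccca

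Of the same 10567 transcripts, 61.4% held AATAAA in their last 50 bases. Neither the stem-loop nor AATAAA was found in the annotated 3′ UTRs of H3-3B, H2AZ2 or MACROH2A1. The H3-3B transcript in the maps has only 21 bases after its stop codon. H2AX, like H1-2 and H1-4, held the stem-loop and no AATAAA in its annotated 3′ UTR. H1-2, H1-4, H1-10 and H2AX are single-exon genes, H3-3A and H3-3B have 4 exons, H2AZ1 and H2AZ2 have 5 and MACROH2A1 has 9.

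Reads within CDSs numbered 6414227 to 22224137 per library. Of 10 hepatocyte genes listed, 9 were found in the maps by name and ALB was not. The paper lists serum albumin among the proteins measured in the medium of Huh7 cells. AFP had a median of 10699 CPM (reads scaled to the normalized library size) in study 1. Of 8 genes of other cell types, PECAM1 (median 15.1 CPM) and ACTA2 (559 CPM) were found by name and the other 6 were not. Reads that ACTA2 may share with other genes were not separated. Of the 12325 transcripts, 1055 had no name, so a gene that was not found may still be in the maps. The search for shared codons covered the 11270 named transcripts only, so sharing with unnamed ones is not known. All reads of H1-10, H3-3A, H2AZ1, H2AZ2 and MACROH2A1 lay on codons whose 28-base windows occur in no other named transcript. For H1-2 and H1-4 at least 88.9% of footprints did. For H3-3B only 24.2% to 48.1% of footprints were unshared, since its CDS resembles H3-5, and for H2AX 37.6% to 61.2%, since it resembles other H2A genes. The values of H3-3B and H2AX therefore could not be assigned to those genes alone.

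In vehicle cells of study 2, H1-2 and H1-4 had the most footprints of the 9 genes and the fewest mRNA-seq reads. H1-2 had 1322 and 1423 CPM of footprints in replicates 4 and 5 and 38.9 and 44.5 CPM of mRNA. H1-4 had 1201 and 1254 CPM of footprints and 16.4 and 28.9 CPM of mRNA. Footprints were above mRNA in both replicates of both genes, and the H1-4 mRNA values differed between replicates by more than any other gene's in proportion. The fitted difference of footprints from mRNA was 5.04 on the log2 scale for H1-2 (SE 0.0987, edgeR adjusted p = 5.88e-11) and 5.75 for H1-4 (SE 0.214, adjusted p = 2.02e-09).

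The genes without a stem-loop differed between the assays by 1.83-fold at most. H1-10 had 95.5 and 92.8 CPM of footprints against 91.3 and 92.9 CPM of mRNA, and the difference did not pass the test (log2 0.03, SE 0.110, edgeR adjusted p = 0.805). MACROH2A1, H2AZ2, H3-3B, H2AZ1 and H3-3A passed, with log2 differences of 0.23, 0.42, 0.71, 0.73 and 0.87. H2AX, the replacement gene with a stem-loop, had a log2 difference of 1.26 (SE 0.103, edgeR adjusted p = 6.95e-07) over all its codons. On unshared codons alone it had 0.71, within the range of the genes without a stem-loop, where H3-3A had 0.83. It had 304 and 305 CPM of footprints and 115 and 139 CPM of mRNA. In all, 8 of 9 genes passed, all with more footprints than mRNA, where 76.6% of 11799 transcripts passed in either direction.

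These ratios compare ribosomes with mRNA that was selected for poly-A tails, so a low mRNA value can be few molecules or few tails, and the 2 cannot be told apart here. As a ratio, H1-2 had 33.0 ± 1.40 footprints per mRNA read (SD, n = 2) and H1-4 had 58.3 ± 21.2, both scaled to CPM. Among 10893 transcripts with at least 10 reads in every study 2 library, H1-4 ranked 13 and 18 from the top in the vehicle replicates and H1-2 ranked 47 and 33. H1-10 lay at the middle, with a ratio of 1.02 ± 0.0341, and MACROH2A1 had 1.17 ± 0.0239.

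**Figure D1:**
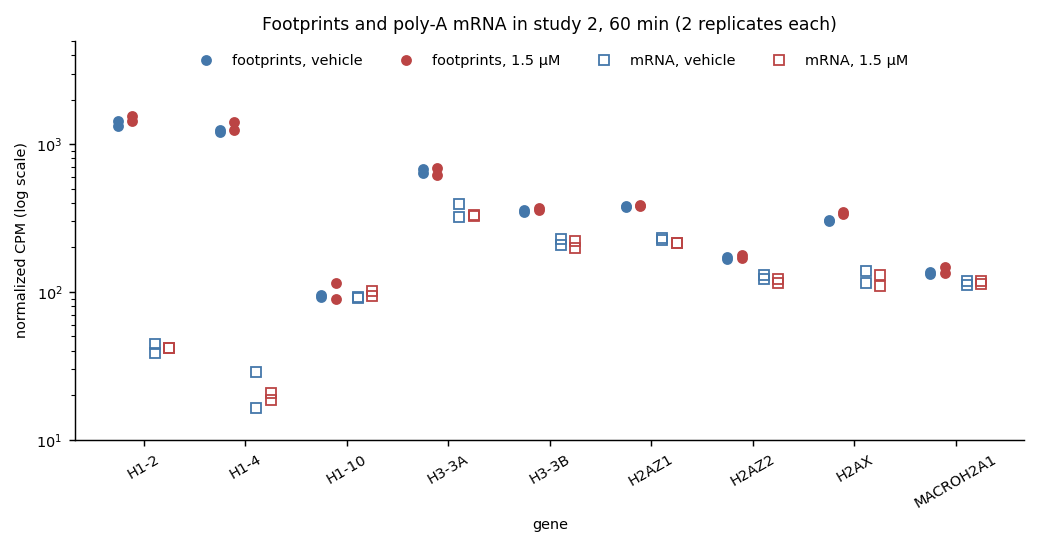
Normalized CPM (log axis) of each gene in the 4 ribo-seq libraries (filled circles) and 4 mRNA-seq libraries (open squares) of study 2, vehicle in blue and 1.5 μM in red, each point a library. H1-2 and H1-4 have the most footprints and the least mRNA, with mRNA between 16.4 and 44.5 CPM, and the other 7 genes lie between 90.2 and 692 CPM in both assays.

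Other replication-dependent linker histones had the same direction. H1-1, H1-3 and H1-5 had footprints above mRNA by 5.65, 5.40 and 7.08 on the log2 scale. All 51 replication-dependent core histone genes in the maps passed as higher in footprints, with a median of 5.27, where the median of all transcripts tested was -0.03. Of 4 other replacement or polyadenylated genes, H2AJ (1.26) and H3-5 (0.83) were higher in footprints, and CENPA (-0.73) and MACROH2A2 (-0.86) were lower. Over all 11799 transcripts, 4448 were higher and 4585 lower. Of 13 genes of histone mRNA 3′ end formation and decay, 8 were higher and 4 lower, with SLBP at 0.98. Of 24 chaperones and remodellers, 13 were higher and 9 lower, with HIRA at -1.81 and DAXX at -1.99.

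Per length, H3-3A led in study 1 and H1-2 in study 2. In vehicle libraries after 10 min, footprint density in CPM per 100 codons was 435 ± 8.1 for H3-3A (SD, n = 3), 351 ± 129 for H1-2, 299 ± 101 for H1-4 and 268 ± 46.5 for H2AZ1. H3-3A overlapped with its neighbour H1-2, whose highest library lay above it, and every library of H1-4 and H2AZ1 lay below every library of H3-3A. H1-2, H1-4 and H2AZ1 overlapped with each other. H3-3B followed with 188 ± 10.1, H2AX with 143 ± 33.1, H2AZ2 with 106 ± 9.16, MACROH2A1 with 32.0 ± 1.14 and H1-10 with 29.1 ± 3.38. The libraries of H3-3B and H2AX overlapped, as did those of MACROH2A1 and H1-10. In vehicle libraries of study 1 after 60 min, H3-3A had 507 ± 95.3, H2AZ1 303 ± 21.4, H1-2 248 ± 10.6 and H1-4 231 ± 7.37. In vehicle libraries of study 2, also after 60 min, H1-2 and H1-4 had 641 ± 33.6 and 558 ± 16.8 (n = 2). There H3-3A had 478 ± 19.8. The difference of H1-2 and H1-4 between the studies was not tested. The studies were normalized separately, so these levels are set side by side only.

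Across the 18 libraries of study 1, H1-2 and H1-4 had the largest ratios of highest to lowest value, and varied together. H1-2 had a lowest value of 352, a median of 554 and a highest of 1067 CPM, and H1-4 had 306, 518 and 904 CPM. For both, the lowest library was 0.3 μM replicate 2 after 10 min and the highest was vehicle replicate 2 after 10 min. The next highest values were 850 CPM for H1-2 and 719 CPM for H1-4, so the order by this ratio rests on that vehicle library. The highest was 3.03 times the lowest for H1-2 and 2.96 times for H1-4. H2AX followed at 2.65 times, and the other 6 genes lay between 1.28 times (MACROH2A1) and 1.72 times (H2AZ1).

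By the correlation of log2 CPM over these 18 libraries, which share 6 groups and their depth, H1-2 and H1-4 were each other's closest partner among 9689 transcripts (Pearson's r 0.975). The next for both was BIRC5, which encodes survivin, a protein of dividing cells, with r of 0.964 for H1-2 and 0.971 for H1-4. H2AX was closest to H2AC14 (0.978) and H2AC13 (0.975), and H3-3B to H3-5 (0.925), with which they share reads. H2AZ1 was closest to RPS14 (0.951), H2AZ2 to SUMO3 (0.927), MACROH2A1 to TSR1 (0.864) and H1-10 to SURF1 (0.839).

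**Figure D2:**
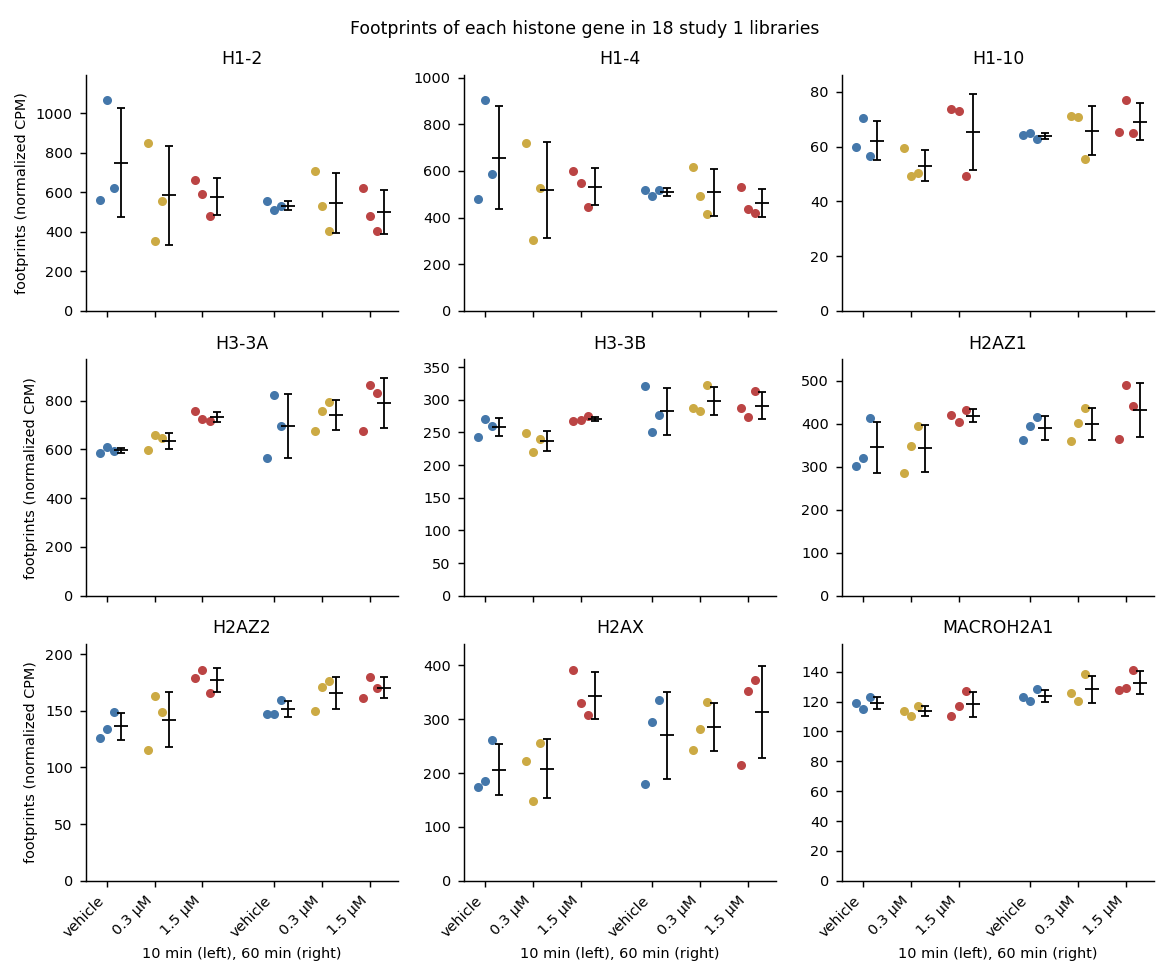
Footprints (normalized CPM, axes from 0) of each gene in the 18 ribo-seq libraries of study 1, each point a library, with vehicle in blue, 0.3 μM in yellow and 1.5 μM in red, and bars giving the mean ± SD of 3. H2AX, H3-3A and H2AZ2 have every 1.5 μM library above every vehicle library after 10 min, and H1-2 and H1-4 have a vehicle replicate at 1067 and 904 CPM.

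After 10 min at 1.5 μM PF-06446846, H2AX was the only 1 of the 9 genes to pass the test, and its footprints rose. It had 173, 184 and 261 CPM in vehicle replicates 1 to 3 and 392, 331 and 307 CPM at 1.5 μM. All treated libraries were above all vehicle libraries. The change was 1.66-fold (log2 0.74, SE 0.148, edgeR adjusted p = 0.0647), where 0.851% of 11045 transcripts passed. On unshared codons alone the log2 change was 0.58 and did not pass (edgeR adjusted p = 0.132). The call was also lost without 1.5 μM replicate 1 (log2 0.63, edgeR adjusted p = 0.315), 1.5 μM replicate 2 (log2 0.76, 0.284) or vehicle replicate 1 (log2 0.63, 0.213). It held without each of the other 3 libraries (log2 0.66 to 0.93, edgeR adjusted p = 0.00144 to 0.0999), with the replicate as a block (log2 0.75, edgeR adjusted p = 4.2e-05) and by DESeq2 (log2 0.73, adjusted p = 1.6e-05).

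H3-3A and H2AZ2 had no overlap between groups and did not pass. H3-3A had 587, 608 and 592 CPM in vehicle and 756, 726 and 718 CPM at 1.5 μM, which gave a log2 difference of 0.30 (SE 0.0920, edgeR adjusted p = 0.156). H2AZ2 had 126, 134 and 149 CPM in vehicle and 179, 186 and 165 CPM at 1.5 μM, with a log2 difference of 0.38 (SE 0.105, edgeR adjusted p = 0.136). With H2AX, 3 of 9 genes had all treated libraries higher, where 11.2% of 10639 transcripts with at least 10 reads in each library did. H2AZ1 had 302, 320 and 414 CPM in vehicle and 421, 404 and 433 CPM at 1.5 μM, so its groups overlapped (log2 0.28, SE 0.119, edgeR adjusted p = 0.254). By DESeq2, H3-3A (adjusted p = 0.00632), H2AZ2 (0.00552) and H2AZ1 (0.0913) passed as well, and under the filter of edgeR and a parametric trend, a setting chosen after seeing the data, H3-3A (0.0672) and H2AZ2 (0.0489) did. With the replicate as a block, H3-3A (edgeR adjusted p = 0.0878) and H2AZ2 (0.0311) passed and H2AZ1 (0.104) did not.

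The replication-dependent H1 genes had the opposite sign and did not pass. H1-2 had 562, 1067 and 621 CPM in vehicle and 664, 589 and 480 CPM at 1.5 μM (log2 -0.38, SE 0.199, edgeR adjusted p = 0.327). H1-4 had 478, 904 and 588 CPM in vehicle and 601, 549 and 446 CPM at 1.5 μM (log2 -0.31, SE 0.188, edgeR adjusted p = 0.397). The groups of both overlapped, and the difference rested on vehicle replicate 2: without it, the log2 differences were -0.04 for H1-2 and -0.01 for H1-4. With the replicate as a block, H1-2 passed as lower (log2 -0.33, edgeR adjusted p = 0.0978) and H1-4 did not pass (log2 -0.27, 0.190). H1-10, H3-3B and MACROH2A1 had log2 differences of 0.06, 0.07 and -0.01.

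Among genes of the same pathways at that time, 12 of 51 replication-dependent core histone genes rose and 0 fell, where 51 of all 11045 transcripts rose and 43 fell, with a median log2 difference of 0.43 where that of all transcripts was 0.01. Their median was 0.07 at 0.3 μM after 10 min and 0.14 at 1.5 μM after 60 min. By edgeR 0 passed in either, and 0 and 4 had an unadjusted p under 0.05. In study 2 ribo-seq, at 1.5 μM after 60 min, their median was 0.10. There 1 passed by edgeR as higher, where 13 of 11263 transcripts passed, and 15 had an unadjusted p under 0.05. Between the vehicle groups of 60 and 10 min, without compound, the median was 0.45. H4C1 (0.88), H4C9 (0.87) and H2BC26 (0.75) were among those that rose at 1.5 μM after 10 min, as was H2AC14 (0.62), which shares reads with H2AX. Reads that fit several of these near-identical genes were counted in each. None of the 24 chaperones and remodellers or 13 genes of histone mRNA 3′ end formation passed by edgeR, and of these 2 and 4 had an unadjusted p under 0.05, as did 4 of the 9 genes and 1953 of all 11045 transcripts. The log2 differences of the 24 chaperones and remodellers lay between -0.47 (ANP32E) and 0.25, with a median of 0.01 and 12 above 0. SLBP had a log2 difference of -0.10, where the median of the 13 genes of its list was -0.09.

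After 60 min at 1.5 μM no gene of the 9 passed, where 0.0726% of 11021 transcripts did, and 0 of the 9 had an unadjusted p under 0.05 by edgeR. The replicate numbers paired these libraries, and with the replicate as a block 0 of the 9 passed and 2 had an unadjusted p under 0.05, while the transcripts passing rose from 8 to 51. H2AX had 180, 294 and 336 CPM in vehicle and 215, 352 and 373 CPM at 1.5 μM. Its groups overlapped (log2 0.21, SE 0.230), and it was higher in 3 of 3 pairs, with a log2 difference of 0.22 under the block (edgeR adjusted p = 0.412). H1-10, H3-3A, H2AZ1, H2AZ2 and MACROH2A1 were also higher in 3 of 3 pairs, which makes 6 of 9 genes, where 14.3% of 10484 transcripts were. H1-2 and H1-4 were higher in 1 of 3. All treated libraries were above all vehicle libraries for H1-10 and H2AZ2, 2 of 9 genes, where this held for 3.18% of 10484 transcripts. H1-2 and H1-4 had log2 differences of -0.08 and -0.13. The change of the 1.5 μM effect from 10 to 60 min, tested as an interaction, did not pass for any of the 9, with 0 of 11167 transcripts (0.0%) passing by edgeR and 506 at an unadjusted p under 0.05, and for H2AX it was -0.53 (SE 0.319, edgeR adjusted p = 0.856).

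At 0.3 μM no gene of the 9 passed after 10 min or after 60 min, where 0.0% of 11131 and 0.0% of 11141 transcripts did by edgeR (104 and 97 at an unadjusted p under 0.05, 0 of the 9 among them). At 10 min H1-2 had a log2 difference of -0.35 and H1-4 of -0.34, with SEs of 0.297 and 0.284. The differences were -0.02 and -0.04 without vehicle replicate 2. H2AX had 0.02 (SE 0.201). At 60 min the 9 values lay between 0.00 and 0.13. The 1.5 μM and 0.3 μM comparisons at each time share their 3 vehicle libraries.

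Between the vehicle groups themselves, 60 min against 10 min, 0 of 9 genes passed and 0.0% of 11098 transcripts did by edgeR (769 at an unadjusted p under 0.05, 1 of the 9 among them). This was H1-2, with 554, 508 and 531 CPM after 60 min (log2 -0.50, SE 0.200, edgeR adjusted p = 0.713). All were below the 10-min libraries of H1-2, the lowest of which had 562 CPM. How often this held over all transcripts was not counted. Without vehicle replicate 2 of 10 min the difference was -0.16, and 0 of the 9 had an unadjusted p under 0.05. H2AX had a log2 difference of 0.39 (SE 0.214) and overlapped. Of the 51 replication-dependent core histone genes, 50 had values above 0 and 36 an unadjusted p under 0.05, and 0 passed by edgeR. This comparison and that of 1.5 μM after 10 min share the vehicle libraries of 10 min.

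In study 2, which repeats 1.5 μM for 60 min, 0 of 9 genes passed in ribo-seq, where 0.115% of 11263 transcripts did, and H2AX alone of the 9 had an unadjusted p under 0.05 by edgeR, as did 335 of all transcripts. H2AX had 304 and 305 CPM in vehicle and 339 and 348 CPM at 1.5 μM (log2 0.17, SE 0.0614, edgeR adjusted p = 0.999). H1-2 had 1322 and 1423 CPM in vehicle and 1438 and 1553 CPM at 1.5 μM (log2 0.12, SE 0.0651). In mRNA-seq 0 of 9 passed and 0.0% of 11812 transcripts did by edgeR (228 at an unadjusted p under 0.05, 0 of the 9 among them), and the log2 differences lay between -0.22 (H1-4) and 0.08 (H1-10). For the change in footprints per mRNA, 0 of 9 passed, where 0.0339% of 11799 did, with 0 of the 9 at an unadjusted p under 0.05 by edgeR. H1-4 had the largest value there, 0.34 (SE 0.262), and without mRNA-seq vehicle replicate 4 it had 0.68 and passed (edgeR adjusted p = 0.0617), as 128 of 11851 transcripts then did.

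**Figure D3:**
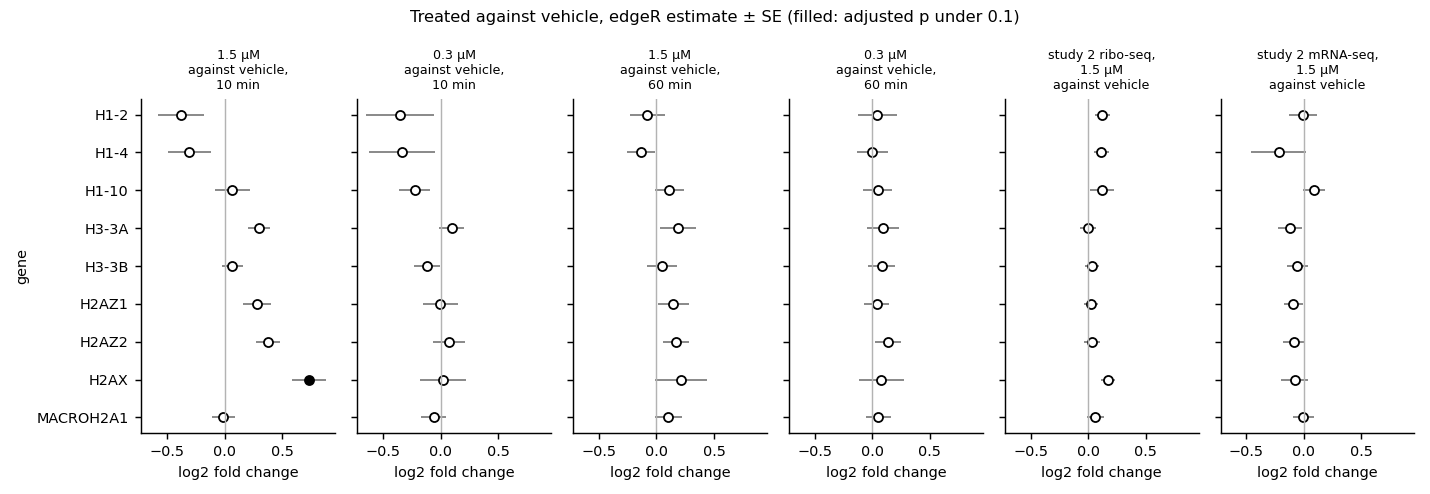
Log2 fold change of treated against vehicle for each gene in 6 comparisons, as edgeR estimates ± SE, with filled points for an adjusted p under 0.1. The only filled point is H2AX after 10 min at 1.5 μM (0.74), where H1-2 and H1-4 lie at -0.38 and -0.31.

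Within the CDSs, the footprints were uneven. In the 6 vehicle libraries of study 1, the 10 leading codons of H2AX held 46.6% of the footprints counted on it. An even spread would give 6.94%. The corresponding share was 22.3% for H1-2. The H2AX share was not computed on unshared codons, and reads of other H2A genes may be among these footprints. In 5 of the 9 genes (H1-4, H3-3B, H2AZ1, H2AZ2 and MACROH2A1) the leading codon was the last one before the stop codon, as it was in 44.1% of the 6802 transcripts with at least 100 reads in each of these libraries. In H2AZ2 this rested on the 10-min libraries, where that codon held 6.68% ± 3.21, against 1.38% ± 0.925 after 60 min, when codon 60 held 4.44% ± 1.54 (SD, n = 3). In MACROH2A1 the last codon held a mean share of 10.0% of footprints (5.68% to 12.9% in the 6 libraries), and in mRNA-seq at most 1.26%. In H1-4 the last codon held 8.91% (3.86% to 16.3%), and in H2AX the leading codon was 113, with 9.88% (7.58% to 13.1%), on a stretch shared with other H2A genes. The CDS windows of these 2 codons are shown with the codon in capitals.
H1-4 codon 219 (chr6:26157033-26157062, plus strand, end of the CDS and start of the 3′ UTR): gcagccaagaaaAAGtagaaagttcctttg
H2AX codon 113 (chr11:119095041-119095070, minus strand, exonic, CDS): ctgcccaacatcCAGgccgtgctgctgccc

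At 1.5 μM after 10 min, footprints in the first 50 codons made up a larger share of all CDS reads for 5 of the 9 genes, with no overlap between groups. H2AZ1 had 28.6% ± 0.487 in vehicle and 35.5% ± 0.311 at 1.5 μM (SD, n = 3). H1-4 had 9.48%, 9.90% and 13.5% in vehicle and 16.1%, 19.9% and 20.5% at 1.5 μM. H1-2 had 13.6%, 12.2% and 16.2% in vehicle and 21.3%, 20.3% and 20.2% at 1.5 μM. The means were 13.9% ± 0.857 and 20.8% ± 4.63 for H2AX and 23.2% ± 0.685 and 27.4% ± 1.76 for H2AZ2 (SD, n = 3). Shares were not computed on unshared codons, and H2AX shares reads with other H2A genes. The share was without overlap and higher in 26.4% of 6855 transcripts with at least 100 reads in each library and 100 codons, whose median difference was 1.04 percentage points. These transcripts were not matched to the 5 genes in length or reads. The median CDS of all transcripts in the maps has 388 codons, where the 5 genes have 129 to 220. The first 50 codons are thus a larger part of their CDSs.

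Each of these 5 differences had the smallest p that an exact permutation test of 3 against 3 allows (two-sided p = 0.1), and 0.675 after adjustment over 54 comparisons. The groups of the other 4 genes overlapped. H3-3A had 19.2% ± 1.43 in vehicle and 19.6% ± 1.76 at 1.5 μM, and MACROH2A1 had 8.95% ± 1.24 and 7.78% ± 1.70. After 60 min, H3-3B (17.2%, 15.9% and 16.3% in vehicle, 14.9%, 13.4% and 13.6% at 1.5 μM) and H2AZ2 (25.4% ± 0.856 and 22.1% ± 1.32) had lower shares without overlap, where 3.87% of 6328 transcripts did. H3-3B also had a lower share at 0.3 μM, where 2.59% of 6612 transcripts did, against the same vehicle libraries. The groups of H3-3B at 0.3 μM overlapped over codons 2 to 40 and also without the last 2 codons, and those of H2AZ2 at 1.5 μM after 60 min overlapped over codons 2 to 40.

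**Figure D4:**
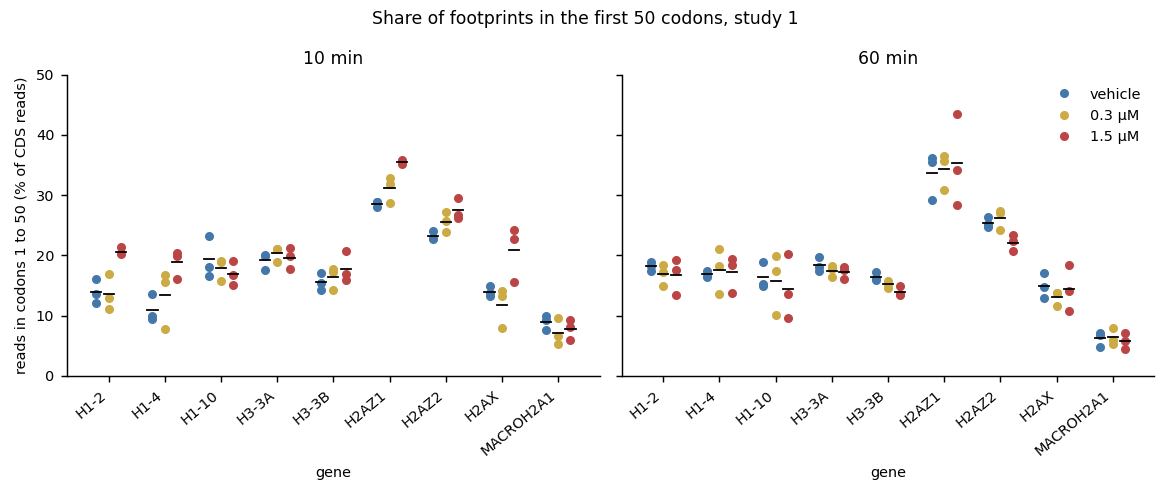
Share of CDS footprints in codons 1 to 50 (% of reads) for each gene in study 1, after 10 min (left) and 60 min (right), each point a library and each bar the mean of 3. After 10 min the 1.5 μM points of H1-2, H1-4, H2AZ1, H2AZ2 and H2AX lie above all vehicle points.

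The result depended on the window and on the codon before the stop. Over codons 2 to 40, the difference for H2AZ1 was -1.99 percentage points, so its larger share lay outside that window, while those of H1-2 and H1-4 were 3.37 and 4.39 points. Without the last 2 codons, the groups of H2AX and H2AZ2 overlapped. The codon before the stop moved the other way in H2AZ1, H1-4, H2AZ2 and H3-3B. It held 9.44% ± 1.70 of H2AZ1 footprints in vehicle and 3.75% ± 1.41 at 1.5 μM after 10 min (SD, n = 3). The values were 9.71% ± 4.32 and 3.14% ± 2.34 for H1-4, and 6.68% ± 3.21 and 1.93% ± 0.231 for H2AZ2. For H3-3B, on a shared codon, they were 7.55% ± 2.24 and 3.66% ± 2.51. None was tested, and the change of this codon was not measured over all transcripts. In MACROH2A1 it held 8.65% ± 2.85 and 11.8% ± 1.94.

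Dmax is the largest excess of the cumulative read curve of 1.5 μM over that of vehicle, as a fraction of reads. It was compared with transcripts of similar read count. Dmax rises with a shift of reads toward the start of the CDS and does not measure a shift toward its end. The lower shares of H3-3B and H2AZ2 after 60 min are therefore outside what it measures. After 10 min, 1 of 9 genes had a Dmax Z-score of 2 or more, where 3.48% of 11422 transcripts did. This was H1-4, with a Dmax of 0.178 at codon 91 and a Z-score of 2.28, which was 1.47 without vehicle replicate 2 and 1.78 without 1.5 μM replicate 3. H2AZ2, H2AX and H2AZ1 had Z-scores of 1.59, 1.57 and 1.48. After 60 min 0 of 9 reached 2, where 2.67% of 11442 did, with MACROH2A1 highest at a Z-score of 0.999. In study 2 0 of 9 did, where 2.34% of 11405 did, with H2AX highest at 1.65.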

How the data were processed

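Ribo-seq and mRNA-seq libraries of Huh7 cells were analysed from 26 codon maps. Per the labels and the Methods, the authors trimmed adapters, removed rRNA reads, aligned with Bowtie 1.1.2 to 1 isoform per gene chosen with kallisto 0.42.5 (GRCh38), kept reads with up to 5 best sites, reported each, and deposited raw counts of reads per codon (P-site, offset of 14 bases), without normalization. Reads on near-identical genes are therefore counted in each.

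Counts were summed over each CDS for 12325 transcripts, 11270 of which have a GENCODE v44 name. Groups came from the labels. Differences were tested with edgeR 4.0.16 in R 4.3.3 (filterByExpr, TMM, quasi-likelihood test, Benjamini-Hochberg adjustment, FDR of 0.1) fitting the libraries of the groups compared, or all 8 study 2 libraries where assays were compared. SE is the log2 fold change divided by the square root of F. CPM values were scaled with TMM factors within each study. Dmax used pooled replicates, at least 10 reads per group and bins of 300 transcripts, with Z-scores as Dmax over the root mean square of the bin. Shares were tested by exact permutation, two-sided. Python 3.11.15, numpy 2.4.6, pandas 2.3.3, scipy 1.17.1 and matplotlib 3.10.9 were used.

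Alternatives were DESeq2 1.42.0 (transcripts with at least 1 read, local dispersion trend), its size factors in edgeR, no filter, an FDR of 0.05, codons after 50, unshared codons, the replicate number as a block, all 18 libraries in a fit, and each library left out. A second DESeq2 setting (the filter of edgeR and a parametric trend) was added after the first DESeq2 counts, and an earlier DESeq2 count of these data, had been seen. Replicate numbers paired the libraries after 60 min, with correlations of deviations of 0.535, 0.409 and 0.531 for 1.5 μM and 0.440, 0.434 and 0.560 for 0.3 μM. After 10 min these were 0.213, 0.238 and 0.0570 for 1.5 μM and 0.211, 0.154 and 0.538 for 0.3 μM. No threshold was set, so whether the numbers pair the libraries of 10 min is not settled. Ribo-seq and mRNA-seq libraries of one number in study 2 came from the same sample. The edgeR test of 2 groups and the Dmax step were run on simulated data, and the other tests were not. The paper calls the study 1 replicates biological, and p-values measure the spread between these libraries. The 9 genes and the gene lists were chosen with earlier results of these data known, and the named genes are the 9, list members and the 2 closest transcripts by correlation, unnamed ones left out. A further gene of these lists is not reported here.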

Additional observations from a re-analysis of the deposited data

How the results depend on the processing

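For 1.5 μM against vehicle after 10 min, the number of genes passing moved from 1 to 4 with DESeq2 (all higher), to 3 with DESeq2 under the filter of edgeR and a parametric trend (all higher, a setting chosen after seeing the data), to 4 with the replicate block (3 higher, with H1-2 lower), and to 0 at an FDR of 0.05, on unshared codons or with all 18 libraries in a fit. Leaving out each library gave 0 to 4, the 4 without vehicle replicate 3, when 1656 of 11130 transcripts passed. DESeq2 called 1198 transcripts there in the first setting and 516 in the second, against 94 by edgeR, and the block called 1196, and the cause was not tested. In study 2 ribo-seq, the replicate block gave 2 (H1-2 and H2AX, both higher) in place of 0, and 129 of 11263 transcripts in place of 13. At 1.5 μM after 10 min the correlations of deviations by replicate number were 0.213, 0.238 and 0.0570, and in study 2 ribo-seq 0.297. Whether the numbers pair the libraries is not settled in either case. The block changed no other count of genes passing, and DESeq2 changed none but that after 10 min. Over all transcripts, edgeR and DESeq2 in its 2 settings called 8, 27 and 16 for 1.5 μM after 60 min, 0, 97 and 43 between the vehicle times, 13, 27 and 17 in study 2 ribo-seq and 4, 13 and 11 for footprints per mRNA. For the change in footprints per mRNA, leaving out each library gave 0 to 1, the 1 being H1-4 without mRNA-seq vehicle replicate 4, and for footprints against mRNA 7 to 8, MACROH2A1 being lost without ribo-seq vehicle replicate 4. Leaving a library out of study 2 leaves 1 in a group, assumed to vary like the others.

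For the Dmax count after 10 min, unshared codons gave 2 (H1-4 and H2AX) and leaving out each library gave 0 to 1. Of 36 comparisons of shares with 3 libraries a group, 8 had no overlap, and this became 5 with codons 2 to 40 or without the last 2 codons. With the first, H2AZ1 after 10 min overlapped, its difference being -1.99 points in place of 6.91, and with the second H2AZ2 and H2AX after 10 min did. No called value changed sign. Of 1350 fold changes under alternatives, 68 changed sign, each without a call in either. With 3 libraries a group, the exact permutation test of shares cannot go below a p of 0.1.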
